A study of Mus musculus with 8 samples.

Results

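Removal of STAT5 from hepatocytes was examined in the livers of XX mice, by comparing knockout with floxed control livers across all genes detected there. A gene was a member where its mean FPKM, a read count divided by gene length and by library total, was at least 1 in the control or in the knockout group. The rule kept 9227 of the 24197 genes in the deposited table, 8585 through both groups, 470 through the knockout group alone and 172 through the control group alone. It used the levels themselves and neither the ratios nor the p-values of the authors. Just inside the limit were Cnnm2, at a mean of 1.0001 FPKM in controls and 0.939 in knockouts, and Nlrx1, at 0.888 and 1.0004. Just outside it were Tmem47, at 0.9996 and 0.933, and Arl2, at 0.804 and 0.9994.

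All animals carried a floxed locus holding the neighbouring genes Stat5a and Stat5b, on a mixed C57BL/6 x 129J background, and were 8 to 12 weeks old. The knockout animals also carried Cre recombinase under the albumin promoter (Alb-Cre), from a line of FVB/N background, so the deletion is aimed at hepatocytes. Which other cells of the liver keep both genes was not measured. The controls are labelled as having the floxed locus, and no Cre is named for them. Cre and any FVB/N background thus go with the deletion in every comparison, and their effects cannot be told apart from it. The groups used here are control XX and knockout XX, and for 1 contrast control XY and knockout XY, each with 2 libraries of total RNA made from pools of livers after depletion of ribosomal RNA. How many livers made up a pool is not stated. Both knockout XX libraries carry the code G137 in their titles and both control XX libraries G138, a code whose meaning is not stated, so the code and the genotype cannot be told apart in XX livers. In XY livers 1 knockout library carries G138, the code of the XX controls, and the other knockout library and both controls carry G140. The code is thus tied to genotype differently in XX and XY livers, and its part in comparisons of the sexes was not tested.

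STAT5 proteins are transcription factors that lie latent in the cytoplasm until the growth hormone receptor and its kinase JAK2 phosphorylate them, after which they enter the nucleus and bind DNA at sites of the form TTCNNNGAA. In rodents the pituitary releases growth hormone in pulses in males and more steadily in females, and the liver reads that pattern in its cytochromes P450, steroid enzymes, transporters and secreted proteins. The SOCS proteins and CISH, themselves targets of STAT5, shut the signal off, and insulin-like growth factor 1 is the circulating product through which growth hormone drives body growth.

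The libraries of a group are known here only as the deeper and the shallower, and pairs of values below are given in that order. The XX library totals ran from 15041481 to 34651386, of which 32.3% to 32.8% fell in genes in controls and 34.9% to 35.5% in knockouts. The median member differed between the control libraries by 0.187 on the log2 scale and between the knockout libraries by 0.132. Nothing in the labels says that the pools hold animals of separate litters or days, and p-values measure the spread between pools.

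The liver transcriptome of the knockouts differed from that of controls in a small share of genes, more of them higher than lower. The authors' deposited table, which gives edgeR ratios and adjusted p-values, calls 321 members with the adjusted p below 0.05, of which 219 were higher in the knockouts and 102 lower. That is 3.48% of the members (2.37% higher and 1.11% lower), against 1.55% of all genes in the table (1.04% higher and 0.508% lower). Counts of called genes in the lists below are to be read against these shares, and a single call in a list says little about its function. The median called gene changed 2.37-fold where higher and 2.09-fold where lower, by the authors' ratios. A refit with limma voom on the recovered reads called 43 members, 36 higher and 7 lower, all of them among the 321 and in the same direction, against 0.354% of the 12980 genes fitted (0.293% higher and 0.0616% lower). A refit with limma on log2(FPKM + 1) called 3 members, against 0.0333% of the 18004 genes fitted. An adjusted p quoted below from the authors' table alone does not mean that voom called the gene. All 321 called members had control and knockout libraries that did not overlap, but so did 44.9% of members in the higher and 8.53% in the lower direction, and 23.1% and 21% once libraries were scaled by the median of ratios.

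By size of change, log2((FPKM + 0.1) knockout/control), 238 members were past 2-fold in the higher and 80 in the lower direction, 68 and 16 were past 4-fold, and 9 were past 16-fold, all higher. The median member stood at 0.14 on this scale, while the median of the log2 edgeR ratio was 0.0092. After the median was subtracted, 181 members were past 2-fold higher and 104 lower, so that the higher share went from 74.8% to 63.5%. FPKM differences below are to be read against that shift of 0.14. Calls were more frequent among abundant genes. They made up 2.50% of the 5554 members whose higher group mean was between 1 and 5 FPKM, 3.55% of the 2538 between 5 and 20, 6.48% of the 911 between 20 and 100 and 14.7% of the 224 above 100.

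Transcripts of the targeted pair were lower in both knockout libraries than in either control. Stat5b (chromosome 11, 100642044 to 100711899 on mm9) was at 3.88 and 2.9 FPKM in the control libraries and 1.77 and 1.11 in the knockout libraries. Stat5a, its neighbour on the same chromosome, was at 0.92 and 0.804 and 0.499 and 0.12 and is no member, its control mean lying under 1. Stat5b is 2.58-fold lower and Stat5a 2.99-fold lower by the authors' deposited table (adjusted p 3.5e-06 and 0.024). Neither was called by voom, with log2 changes of -1.40 ± 0.26 (SE) for Stat5b and -1.82 ± 0.49 for Stat5a and adjusted p-values of 0.084 and 0.238. These values cover the whole gene and all cells of the liver, and fewer cells of a type and less RNA per cell cannot be told apart in them or in any value below.

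Among the 19 genes for growth hormone, JAK-STAT and SOCS signalling in the table, the called falls were those of Cish and Socs2. Cish, the STAT5-induced inhibitor of cytokine receptors, was at 3.11 and 2.68 FPKM in controls and 1.05 and 1 in knockouts, tight pairs far from each other. In the authors' deposited table it is 3.11-fold lower (adjusted p 6.1e-10), and voom did not call it (adjusted p 0.384). Socs2, which tags the growth hormone receptor for degradation, went from 4.79 and 10.9 to 4.46 and 2.52 FPKM, and is 2.47-fold lower by the authors' deposited table (adjusted p 0.022). Its deeper control library stood close to its deeper knockout library. The growth hormone receptor gene Ghr itself was at 55.7 and 60.1 FPKM in controls and 57 and 59 in knockouts. These groups overlapped, and the adjusted p is 1 in the authors' deposited table. Prlr, the prolactin receptor, was at 15.8 and 18 and 13.9 and 9.58 (adjusted p 0.112 in the authors' deposited table), and Socs3 at 0.911 and 1.49 and 0.7 and 1.42, neither of them called. The promoter windows of Cish and of the repressor gene Bcl6 are shown because each holds the STAT letters TTCNNNGAA. Both run from 200 bases before to 30 after the RefSeq gene start on GRCm38.p6, 5′ to 3′ on the gene's strand, with matches in capitals. The Cish window lies at chr9:107296459-107296688 (plus strand) and holds matches at positions 1 to 9 and 12 to 20, counted from 1 at the gene start. The Bcl6 window lies at chr16:23988823-23989052 (minus strand) and holds a match from -118 to -110.
Cish: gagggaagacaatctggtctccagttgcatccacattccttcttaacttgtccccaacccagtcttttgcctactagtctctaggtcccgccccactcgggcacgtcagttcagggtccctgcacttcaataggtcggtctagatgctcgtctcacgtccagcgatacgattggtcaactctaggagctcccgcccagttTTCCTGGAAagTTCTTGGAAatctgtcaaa
Bcl6: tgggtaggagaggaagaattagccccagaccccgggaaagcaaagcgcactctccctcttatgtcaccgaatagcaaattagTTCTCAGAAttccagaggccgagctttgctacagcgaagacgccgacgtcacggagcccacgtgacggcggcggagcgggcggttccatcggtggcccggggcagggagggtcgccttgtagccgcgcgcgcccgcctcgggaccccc

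In the IGF system the circulating factor fell and a binding protein rose, while most of the 17 genes listed did not pass the test. Igf1 was at 56.8 and 77.2 FPKM in controls and 36.7 and 24 in knockouts, so the lowest control was above the highest knockout. The authors' deposited table has it 2.44-fold lower (adjusted p 3.7e-05), and voom gave -1.32 ± 0.25 with an adjusted p of 0.094. Igfbp1, a binding protein that rises in fasting and restrains free IGF, was at 8.45 and 5.51 and then 42.3 and 60 FPKM. Both knockout values of Igfbp1 were far above either control, and voom called it as well (2.69 ± 0.33, adjusted p 0.017; 6.61-fold higher, adjusted p 2.7e-24, in the authors' deposited table). Igfals, the acid-labile subunit that keeps IGF in serum, was at 25.8 and 23.3 FPKM in controls and 22 and 14.4 in knockouts and was not called. Igfbp2 was at 39.4 and 39.7 and 61.4 and 72.6, and its adjusted p of 0.051 in the authors' deposited table was just past the limit.

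Among 29 growth factor and cytokine receptors, 1 rose and 2 fell, against 1.04% of all genes called higher and 0.508% lower. Il1r1, the receptor for interleukin 1, was at 2.97 and 2.5 FPKM in controls and 8.89 and 11.6 in knockouts, and was called by voom (1.75 ± 0.18, adjusted p 0.0068). Egfr, the epidermal growth factor receptor, went from 32 and 66.8 to 20.7 and 20.2 FPKM, with knockouts alike and controls apart. The leukaemia inhibitory factor receptor Lifr went from 38.5 and 46.3 to 26.9 and 25.2. They are 3.4-fold higher, 2.68-fold lower and 1.79-fold lower by the authors' deposited table (adjusted p 1.7e-14, 2.7e-04 and 0.0011).

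Of 24 transcription factors of hepatocytes and of sex-biased liver genes, 3 rose and 1 fell. Bcl6, a repressor that opposes STAT5 at shared sites, rose from 1.42 and 0.668 to 5.24 and 4.24 FPKM (3.97-fold higher, adjusted p 3.4e-11, in the authors' deposited table). The acute phase activators Cebpb and Cebpd went from 27.9 and 15.6 to 41.9 and 54 and from 0.958 and 0.5 to 1.44 and 2.14 FPKM, and are 2-fold higher and 2.11-fold higher by the authors' deposited table (adjusted p 0.0064 and 0.029). Onecut1, or HNF6, which is induced by growth hormone in rat liver, fell from 7.92 and 9.15 to 3.55 and 4.85 FPKM (2.24-fold lower, adjusted p 1.7e-05, in the authors' deposited table). Cux2, a repressor typical of female liver, was at 5.22 and 3.03 FPKM in controls and 4.22 and 2.13 in knockouts, with overlapping groups and no call. Hnf4a, the central factor of hepatocyte identity, was at 56.5 and 58.5 and 59.3 and 57.9. Of 30 nuclear receptors only the adipogenic receptor Pparg was called in the authors' deposited table, from 1.06 and 0.938 to 2.35 and 2.35 FPKM (2.12-fold higher, adjusted p 5.9e-04), and Ppara, the receptor that drives fatty acid oxidation, was at 21.9 and 21.1 and 24.7 and 22.8.

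**Figure D1:**
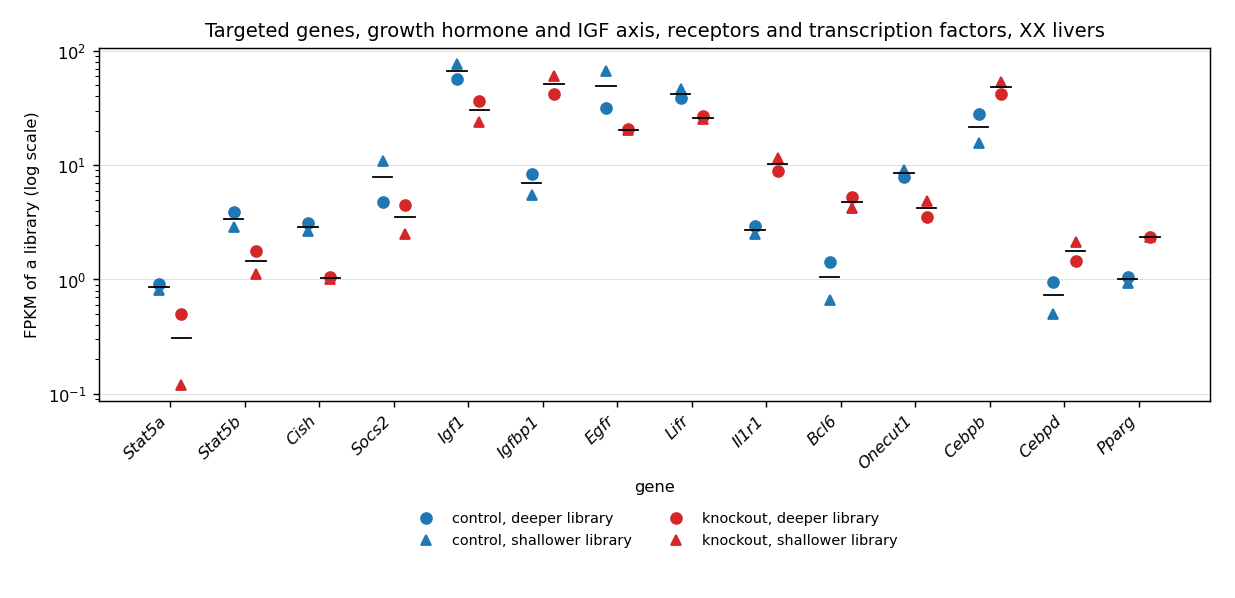
FPKM of single XX libraries (log axis) for the targeted genes, growth hormone and IGF genes, receptors and transcription factors, with circles for the deeper and triangles for the shallower library of a group and bars for the mean of both. The 14 genes were all called by the authors' test, and no called member had overlapping libraries. That control (blue) and knockout (red) points lie apart here therefore adds nothing to the calls. Among all members 44.9% lay apart in the higher and 8.53% in the lower direction. Egfr has control libraries far apart, at 32 and 66.8 FPKM.

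Cytochrome P450 genes of families 1 to 4 moved in both directions, 6 higher and 6 lower among 53, so that their median log2 ratio, 0.08 over 50 genes averaging at least 1 FPKM, was near the 0.14 of all 8922 such genes. Cyp2d9, a steroid hydroxylase typical of male liver, was at 11.4 and 11.7 FPKM in controls and 42.2 and 79.6 in knockouts and was called by voom (2.19 ± 0.28, adjusted p 0.019). Cyp4a12a, another male-typical enzyme, which makes the arachidonate metabolite 20-HETE, went from 0.131 and 0.631 to 1.75 and 6.94 FPKM, 11-fold higher by the authors' deposited table (adjusted p 5.3e-05), with libraries of both groups far apart. Cyp2c54 fell from 95.9 and 103 to 49.5 and 39.8 and Cyp2c40 from 80.9 and 102 to 47.8 and 27.8 FPKM, and they are 2.45-fold lower and 2.67-fold lower by the authors' deposited table (adjusted p 8.1e-09 and 9.7e-06). The female-typical steroid hydroxylase Cyp2a4 fell as well, from 171 and 149 to 98.7 and 100.3 FPKM (1.77-fold lower, adjusted p 4.3e-04, in the authors' deposited table). Of the female-typical Cyp2b genes, Cyp2b9 was at 126 and 95.7 FPKM in controls and 128 and 114 in knockouts and Cyp2b13 at 61.8 and 46.9 and 45.4 and 53.2, with overlapping groups and no call. Many of these genes have near-identical neighbours, and how reads that match several copies were counted is not given in the sources used here, so values within the Cyp2c, Cyp2b and Cyp4a families are uncertain.

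Flavin monooxygenases, which oxidise nitrogen and sulfur in drugs, included 3 described here that fell. Fmo1 was at 67.9 and 67.7 FPKM in controls and 48.6 and 42.3 in knockouts, Fmo2 at 7.31 and 7.93 and 4.13 and 3.76, and Fmo4 at 4.34 and 3.83 and 2.32 and 2.02. The pairs lay close together within each group, and voom called Fmo1, Fmo2 and Fmo4 (adjusted p 0.042, 0.041 and 0.027). Fmo5 was at 54.4 and 41.3 and 49 and 71.7 FPKM and was not called. Aox1 and Xdh, molybdenum enzymes, rose, and are 1.7-fold higher and 1.77-fold higher by the authors' deposited table (adjusted p 0.004 and 0.049).

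Sulfotransferases rose in 8 of 17 genes and fell in 1, with a median log2 ratio of 0.93 over 16 genes. The control libraries differed from each other by nearly as much in this list, the deeper being higher by a median of 0.88 on the log2 scale. The Sult2a cluster on chromosome 7, which sulfates bile acids and steroids, made up 7 of the 8. Sult2a1 was at 10.9 and 3.39 FPKM in controls and 106 and 120 in knockouts, and Sult2a7 at 0.193 and 0.222 and 19.6 and 17.4. Voom called Sult2a1 (3.85 ± 0.40, adjusted p 0.0066) and Sult2a7 (6.23 ± 0.54, adjusted p 0.0053), along with Sult2a3 and Sult2a6. Because the Sult2a genes resemble each other closely, the split of reads among them is uncertain. The summed FPKM of all 17 sulfotransferases overlapped between the groups, at 874 and 408 in controls and 864 and 819.7 in knockouts. Sult1e1, which inactivates oestrogens, rose from 0.71 and 0.158 to 2.45 and 5.19 FPKM (7.05-fold higher, adjusted p 1.9e-07, in the authors' deposited table).

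Glucuronosyltransferases fell in 5 of 21 genes and rose in 0, against 0.508% of all genes called lower and 1.04% higher. Their summed level lay at 677 and 674 FPKM in controls and 602 and 619.6 in knockouts, both knockout libraries below both controls. The list did not fall as a whole, since its median log2 ratio was 0.06 over 17 genes, against 0.14 for all genes. With the deeper knockout library alone this median was -0.04 and with the shallower alone 0.15, and voom called 0 of the list. Ugt2b1 was at 104 and 102 FPKM in controls and 56.7 and 49.6 in knockouts (2.13-fold lower, adjusted p 4.1e-07, in the authors' deposited table). The phenol-conjugating Ugt1a9 went from 14.4 and 22.7 to 9.15 and 8.12 (adjusted p 5.4e-05 in the authors' deposited table), but the Ugt1a genes share exons, so reads cannot be assigned to one of them with certainty. In steroid metabolism 2 of 24 genes fell, Srd5a1, the 5-alpha-reductase, from 6.44 and 5.94 to 3.86 and 2.65 FPKM and Hsd3b2 from 11.5 and 17.4 to 7.84 and 6.13 (adjusted p 1.5e-04 and 1.7e-04 in the authors' deposited table). In bile acid synthesis and transport, Cyp7a1, the rate-limiting enzyme of the classical pathway, fell from 56.5 and 48.1 to 20.9 and 37.7 FPKM and Cyp7b1, the oxysterol hydroxylase of the alternative pathway, from 16 and 18.9 to 7.3 and 6.14. They are 1.96-fold lower and 2.85-fold lower by the authors' deposited table (adjusted p 0.011 and 4.1e-11). The efflux pump Abcg2 rose from 4.72 and 5.66 to 9.65 and 11 FPKM, and is 1.82-fold higher by the authors' deposited table (adjusted p 0.0022).

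**Figure D2:**
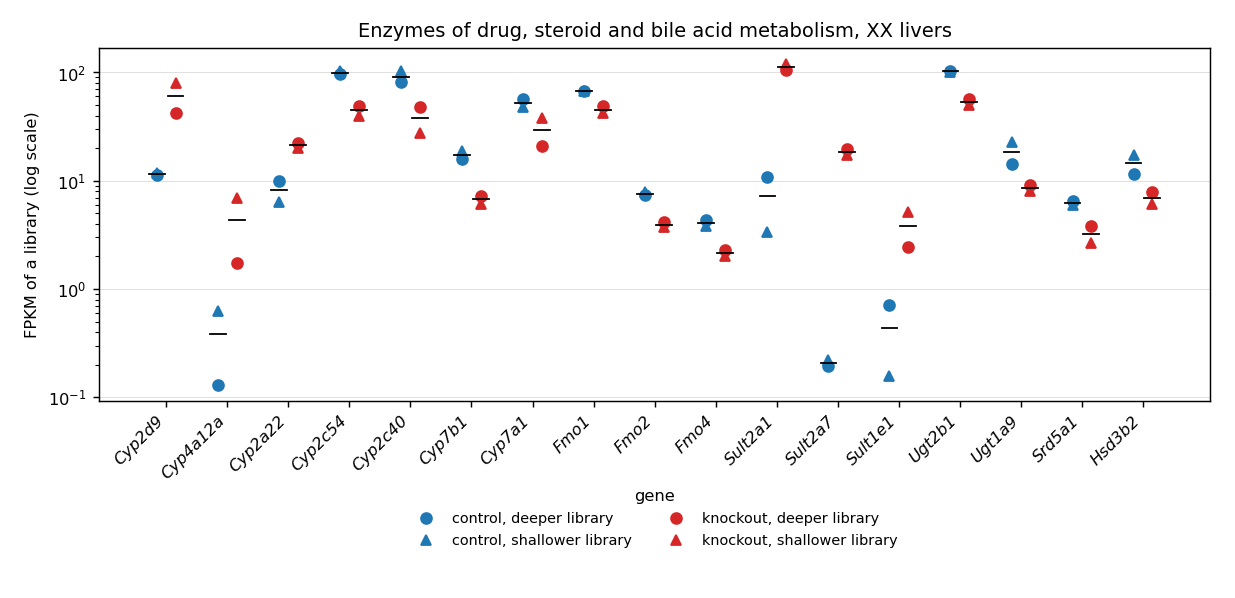
FPKM of single XX libraries (log axis) for 17 enzymes of drug, steroid and bile acid metabolism, with circles for the deeper and triangles for the shallower library and bars for group means. The 3 flavin monooxygenases lie lower in both knockout libraries (red) than in both controls (blue), and Sult2a7 lies about 0.2 FPKM in controls against 19.6 and 17.4 in knockouts.

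Solute carriers rose in 5 of 30 and fell in 2, against 1.04% of all genes called higher and 0.508% lower. The carnitine transporter Slc22a5 was at 2.67 and 2.23 FPKM in controls and 6.68 and 7.33 in knockouts (voom 1.35 ± 0.15, adjusted p 0.0099), and the dicarboxylate transporter Slc13a3 at 3.36 and 3.59 and 9.88 and 11.5 (voom adjusted p 0.032). Slc13a5, which imports citrate, rose from 0.556 and 0.447 to 1.39 and 1.86 FPKM and the organic anion transporter Slc22a7 from 4.3 and 2.98 to 16.2 and 9.31, with adjusted p-values of 2.3e-06 and 2.9e-07 in the authors' deposited table. Slc22a26, a member of the same anion transporter family, fell from 41.6 and 34.8 to 23.6 and 15.7 (adjusted p 1.4e-04 in the authors' deposited table).

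Among 30 genes of fatty acid uptake and lipid droplets, 2 rose and 1 fell. The fatty acid translocase Cd36 rose from 2.39 and 2.96 to 8.5 and 14.2 FPKM (voom 1.94 ± 0.28, adjusted p 0.032). G0s2, an inhibitor of the triglyceride lipase, rose from 8.56 and 3.86 to 24.3 and 18, and the fatty acid chaperone Fabp5 fell from 22.4 and 40.7 to 13.6 and 3.83, where the knockout libraries were far apart (adjusted p 4.3e-06 and 0.0015 in the authors' deposited table). In fatty acid oxidation 2 of 32 rose, Pdk4, which spares glucose by blocking pyruvate dehydrogenase, from 0.451 and 0.327 to 1.7 and 1.21 FPKM and the pantetheinase Vnn1 from 0.549 and 1.84 to 9.31 and 2.85. The list's median log2 ratio was 0.36 with both knockout libraries, 0.48 with the deeper alone and 0.24 with the shallower alone. Of 21 genes of fatty acid synthesis none was called (6 had an unadjusted p under 0.05 in the authors' deposited table, and voom called 0). Fasn, the fatty acid synthase, was at 24.1 and 17.7 FPKM in controls and 25.2 and 23.4 in knockouts. The gluconeogenic Pck1 was at 421 and 350 and 445 and 443 and was not called. Among 40 genes of the urea cycle and amino acids, Etnppl, which breaks down phosphoethanolamine, fell from 13.6 and 13.7 to 4.5 and 4.05 FPKM (3.5-fold lower, adjusted p 1.3e-18, in the authors' deposited table), and the kynurenine hydroxylase Kmo rose from 27.7 and 29 to 48.3 and 49.8 (adjusted p 0.018).

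The 2 largest rises among members, by log2 FPKM ratio and by FPKM difference, were of acute phase proteins, which hepatocytes secrete in inflammation. Of the 36 measured, 15 rose and 2 fell, and their median log2 ratio was 0.82 over 34 genes. Serum amyloid A genes led. Saa1 was at 27.4 and 12.3 FPKM in controls and 1127 and 1839 in knockouts, and Saa2 at 28.4 and 4.03 and 1083 and 1913, with the control libraries of Saa2 far apart. Voom called both, with log2 changes of 6.06 ± 0.43 and 6.58 ± 0.72 and adjusted p-values of 0.0032 and 0.0088. The ratios make them 67.7-fold higher and 84.5-fold higher by the authors' deposited table (adjusted p 7.6e-53 and 2.6e-18). The promoter windows of the pair show how alike they are: 224 of 231 aligned columns match, and both hold the C/EBP letters TTGCNNAA (capitals, from -182 to -175 in Saa1 and from -183 to -176 in Saa2). Saa1 lies at chr7:46742951-46743180 on the minus strand and Saa2 at chr7:46751633-46751862 on the plus strand of GRCm38.p6, and each window again runs from 200 bases before to 30 after the RefSeq start. Their transcripts may be as hard to tell apart, so the 2 values are best read together.
Saa1: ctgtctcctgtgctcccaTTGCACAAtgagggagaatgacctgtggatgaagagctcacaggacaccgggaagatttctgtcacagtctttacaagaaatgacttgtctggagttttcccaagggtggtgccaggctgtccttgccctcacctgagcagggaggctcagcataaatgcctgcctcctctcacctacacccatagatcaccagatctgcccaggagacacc
Saa2: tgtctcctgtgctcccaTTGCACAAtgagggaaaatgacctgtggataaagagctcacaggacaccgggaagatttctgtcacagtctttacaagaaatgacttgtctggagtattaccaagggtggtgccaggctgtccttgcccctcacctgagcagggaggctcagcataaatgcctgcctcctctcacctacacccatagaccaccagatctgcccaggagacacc

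Orm2, an orosomucoid that binds drugs in plasma, rose from 6.38 and 3.35 to 78.7 and 139 FPKM (voom 4.21 ± 0.39, adjusted p 0.0053). Lcn2, which withholds iron from bacteria, rose from 12 and 2.88 to 79.3 and 157 (voom adjusted p 0.025), and haptoglobin, Hp, the scavenger of free haemoglobin, from 265 and 234 to 934 and 1183 (voom 1.94 ± 0.17, adjusted p 0.0053). The haem carrier Hpx rose from 631 and 575 to 903 and 1313 FPKM, 1.67-fold higher by the authors' deposited table (adjusted p 0.028). Not all of the class moved: Crp was at 89 and 93.9 FPKM in controls and 78.9 and 68.8 in knockouts, and Hamp, the iron hormone hepcidin, at 477 and 599 and 610.2 and 577, neither called. Apcs, serum amyloid P, fell from 189 and 160 to 93.2 and 105 FPKM, 1.93-fold lower by the authors' deposited table (adjusted p 4.2e-05). Serpina3k, a very abundant protease inhibitor, fell from 1230.2 and 1842 to 833 and 406 FPKM (2.74-fold lower, adjusted p 5.2e-04, in the authors' deposited table), the largest called fall in FPKM among members. Albumin itself, Alb, was at 13339 and 15798 FPKM in controls and 14075 and 11496 in knockouts and was not called, nor was transferrin, Trf, at 2539 and 2822 and 2252 and 1799.

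Serpins outside coagulation were split, 1 higher and 5 lower among 27, against 1.04% of all genes called higher and 0.508% lower. Serpina7, which carries thyroxine in plasma, rose from 1.75 and 3.52 to 15.1 and 17.3 FPKM (voom 2.70 ± 0.25, adjusted p 0.0053). The pseudogene Serpina4-ps1 fell from 43.1 and 143 to 9.91 and 2.04, with both groups spread widely (17.3-fold lower, adjusted p 2.3e-07, in the authors' deposited table). Serpina12, or vaspin, fell from 1.96 and 1.96 to 0.517 and 0.0575, and Serpina3j went from 0.361 and 1.9 FPKM to 0 in both knockout libraries. In complement, C4b rose from 72.2 and 65.6 to 127 and 145 FPKM (voom adjusted p 0.041), and the factor H-related gene Cfhr2 fell from 108 and 109 to 59.2 and 56 (adjusted p 8.8e-07 in the authors' deposited table). The central component C3 was at 767 and 738 and 936 and 864 and was not called. Major urinary proteins, pheromone carriers of the lipocalin fold, moved both ways. Mup3 fell from 499.7 and 660.4 to 273 and 201 FPKM and Mup9 rose from 34.4 and 31.5 to 236 and 150.3 (voom 2.37 ± 0.33, adjusted p 0.032), while Mup20, or darcin, rose from 6.09 and 7.13 to 14.7 and 16.4 (2.17-fold higher, adjusted p 1.3e-05, in the authors' deposited table). Copies in this cluster are nearly identical, so values of single Mup genes are uncertain.

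Genes induced by interferon and genes of antigen presentation were higher in the knockouts. The shallower knockout library exceeded the deeper by a median of 1.62 on the log2 scale for the interferon-inducible GTPases and 1.54 for MHC class II. The gap was smaller for interferon-stimulated genes (0.77) and for the class I list (0.48). The authors' deposited table calls 21 of 54 interferon-stimulated genes and 13 of 19 interferon-inducible GTPases higher. It also calls higher 12 of 29 genes of MHC class I, the immunoproteasome and peptide loading and 5 of 11 genes of MHC class II. None in these lists was called lower, and 1.04% of all genes were called higher. Voom called 0 of the interferon-stimulated genes, 0 of the class II genes and 2 of the class I list. In 11 of the 21 interferon-stimulated genes called higher, the shallower knockout library was 2-fold or more above the deeper. The immunity-related GTPase Igtp was at 6.62 and 5.82 FPKM in controls and 21.5 and 58.5 in knockouts, and Irgm1 at 6.88 and 6.66 and 15.2 and 38.3. The guanylate-binding protein Gbp2 was at 0.905 and 0.921 and 2.6 and 19.2 FPKM and the T-cell-specific GTPase gene Tgtp1 at 0.257 and 0.213 and 2.53 and 13.5. The knockout libraries thus differed by more than 2-fold in all 4 genes, though the lower of them was above both controls. Gm4841, listed with these GTPases, was at 1.37 and 1.71 FPKM in controls and 37.8 and 76.2 in knockouts, and is the only one of the 19 GTPases that voom called (5.05 ± 0.51, adjusted p 0.0066). Igtp is 5.84-fold higher, Gbp2 10.8-fold higher and Tgtp1 30.6-fold higher by the authors' deposited table (adjusted p 2.3e-09, 2.6e-05 and 4.6e-12). The mm9 spans of Tgtp1 and Tgtp2 overlap, and both count in the list, so the split of reads between them is uncertain. The windows of Igtp and Gbp2 are shown because each holds the letters GAAANNGAAA of the interferon-stimulated response element on either strand. In Igtp (chr11:58199356-58199585, plus strand, GRCm38.p6) they lie from -34 to -25, after a STAT match from -45 to -37, and in Gbp2 (chr3:142620463-142620692, plus strand) from -59 to -50. The matches shown do not overlap each other.
Igtp: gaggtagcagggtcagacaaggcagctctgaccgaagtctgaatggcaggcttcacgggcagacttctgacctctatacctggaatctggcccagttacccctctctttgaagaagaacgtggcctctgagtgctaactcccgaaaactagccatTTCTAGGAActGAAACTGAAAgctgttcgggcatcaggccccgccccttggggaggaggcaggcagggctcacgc
Gbp2: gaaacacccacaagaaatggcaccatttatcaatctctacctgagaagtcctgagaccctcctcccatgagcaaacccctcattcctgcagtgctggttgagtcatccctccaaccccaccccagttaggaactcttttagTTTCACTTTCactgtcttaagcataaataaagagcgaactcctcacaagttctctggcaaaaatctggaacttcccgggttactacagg

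Class I and class II genes differed in how evenly the knockout libraries shared the rise. H2-D1, which presents peptides on most cells, was at 54.4 and 43 FPKM in controls and 115 and 129 in knockouts (voom 1.20 ± 0.18, adjusted p 0.043). Its mm9 span overlaps that of H2-L, which counts in the same list, so the split of their reads is uncertain. H2-Q1 was at 0.827 and 0.755 FPKM in controls and 4.87 and 3.32 in knockouts (voom adjusted p 0.045). The immunoproteasome subunit Psmb8 was at 5.47 and 3.91 and 11.5 and 24.3 FPKM and the peptide transporter Tap1 at 1.86 and 1.96 and 5.16 and 11. For class II the libraries were further apart. Cd74, the invariant chain, was at 17.2 and 20.9 FPKM in controls and 50.5 and 147 in knockouts, and H2-Ab1, a chain of the class II molecule itself, at 6.05 and 8.14 and 13.3 and 33.7. They are 4.71-fold higher and 3.02-fold higher by the authors' deposited table (adjusted p 1.7e-06 and 0.0011), and voom called neither (adjusted p 0.242 and 0.548).

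The size of these groups therefore depended on which knockout library was read. With the shallower library alone the median log2 ratio was 3.15 for the GTPases, 2.41 for class II, 1.25 for interferon-stimulated genes and 1.21 for class I. With the deeper alone it was 1.26, 0.90, 0.58 and 0.56, still above the 0.14 of all genes. Over all members the shallower knockout library exceeded the deeper by 2-fold in 135 genes and the reverse held in 85, but among the 219 called higher the numbers were 48 and 4. Acute phase proteins depended on the library as well, with medians of 0.50 and 1.02 for the deeper and the shallower. Their median gene was higher in the shallower knockout library by 0.21 on the log2 scale. The immediate early gene Fos rested on the shallower library, at 0.276 and 0.254 FPKM in controls and 0.597 and 5.46 in knockouts, and Gm6614 on the deeper, at 0.0739 and 0.034 and 4.24 and 0.152.

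**Figure D3:**
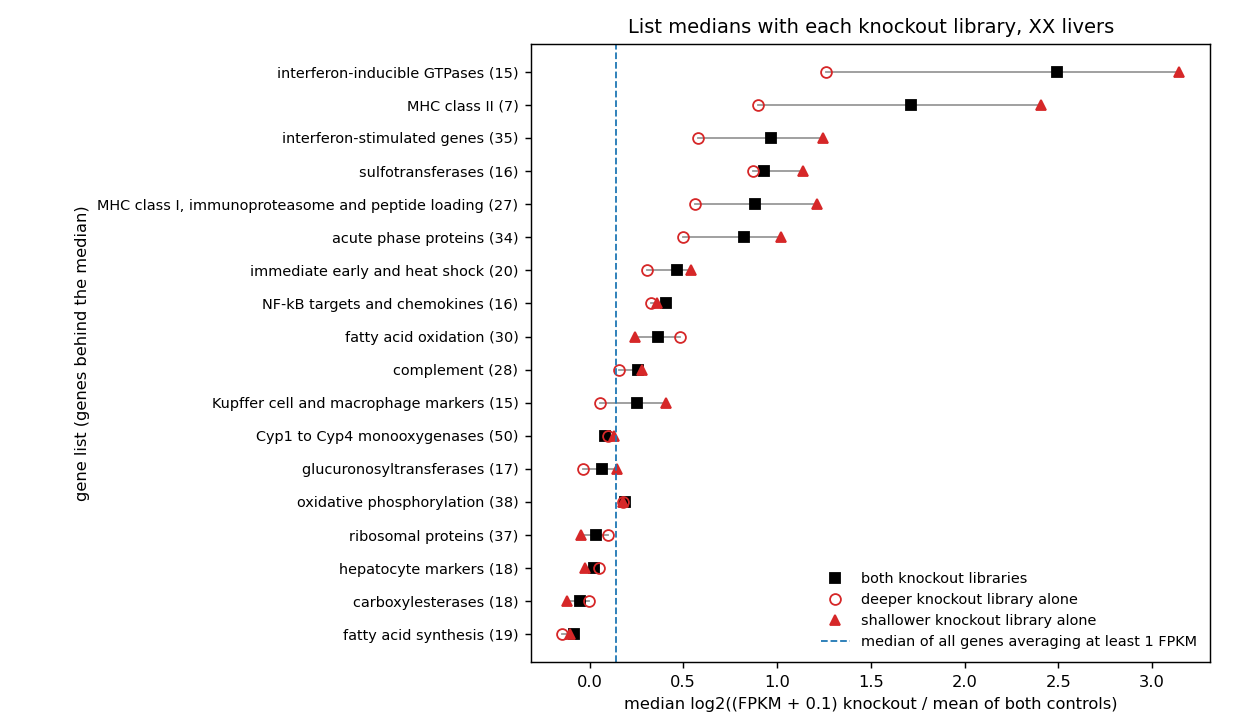
Median log2((FPKM + 0.1) knockout/mean of controls) of 18 gene lists in XX livers, with squares for both knockout libraries, open circles for the deeper and triangles for the shallower alone, and the number of genes behind each median in brackets. The interferon and class II lists are spread widest, from 1.26 to 3.15 for the GTPases, while ribosomal, oxidative phosphorylation and hepatocyte lists stay near the dashed line at 0.14.

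Markers of the other cells of the liver were measured beside these rises. The 18 Kupffer cell and macrophage markers in the table summed to 116 and 111 FPKM in controls and 121 and 159.9 in knockouts, so they too were highest in the shallower knockout library. Of the 15 markers averaging at least 1 FPKM, 14 were higher in the shallower than in the deeper knockout library. Their median gap was 0.41 on the log2 scale, against -0.01 for all genes. In the authors' deposited table only Mpeg1 of the 18 was called (4.12-fold higher, adjusted p 5.2e-07). It went from 6.48 and 4.74 to 14.9 and 35.8 FPKM. The Kupffer marker Clec4f was at 11.8 and 11.3 FPKM in controls and 11.3 and 14.1 in knockouts, and Emr1, which encodes the macrophage antigen F4/80, at 2.22 and 2.54 and 2.18 and 2.83. The 16 lymphocyte markers summed to 4.3 and 4.2 FPKM in controls and 3.8 and 4.9 in knockouts, the 11 neutrophil markers to 2.5 and 3.6 against 1.6 and 3.8, and no marker of these lists, or of endothelial, stellate and bile duct cells, was called. The part of other cell types in the interferon and class II values was not tested. All 18 hepatocyte markers were members, and Alb was the most abundant of them.

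Most of the smaller groups had 1 to 4 called genes. In the apolipoprotein L family, related to the trypanolytic factor of human serum, Apol10b had control libraries at 0.0291 and 0 FPKM. Its knockout libraries, at 2.33 and 11.8, lay far apart. The authors' deposited table calls it higher (adjusted p 2.2e-18), and voom did not (7.49 ± 3.47, adjusted p 0.549). Of 25 fetal, injury and tumour-associated genes 4 rose, among them Chil1, a chitinase-like secreted protein, from 0.0683 and 0.0787 to 2.55 and 4.75 FPKM (adjusted p 1.8e-23 in the authors' deposited table). Voom did not call Chil1 (adjusted p 0.138). Of 27 genes of growth arrest, p53 and NADPH oxidase, 2 rose. Cdkn1a, the cyclin-dependent kinase inhibitor p21, was at 0.285 and 0.197 and 1.43 and 1.01 FPKM (adjusted p 1.3e-06 in the authors' deposited table), with both knockout libraries well above the controls. It was not called by voom (adjusted p 0.530). Among 29 immediate early and heat shock genes, 4 rose. The inducible chaperone Hspa1b went from 1.03 and 1.09 to 2.82 and 5.85 FPKM (adjusted p 1.2e-06 in the authors' deposited table), and its neighbour Hspa1a is nearly identical in sequence. Of 34 NF-kB targets and chemokines only Cxcl1, a neutrophil attractant, was called in the authors' deposited table, from 3.47 and 2.52 to 5.61 and 12.1 FPKM (adjusted p 0.0028).

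In iron and BMP-SMAD signalling, Smad9, a receptor-regulated SMAD, fell from 1.27 and 1.36 to 0.367 and 0.174 FPKM (5.2-fold lower, adjusted p 6.2e-14, in the authors' deposited table). The knockout libraries of Smad9 were both far under the controls, but voom did not call it (adjusted p 0.176). The ferritin heavy chain Fth1 was the only other of the 32 genes called in the authors' deposited table. Of 33 glutathione and NRF2 genes 1 fell, the transferase Gstm6, from 17.9 and 18 to 4.85 and 10.5. Of 21 carboxylesterases 2 fell, of which Ces3b went from 65.6 and 68.9 to 36.1 and 22.2 FPKM (adjusted p 4.2e-04 for Gstm6 and 2.5e-06 for Ces3b in the authors' deposited table). Among 25 secreted hepatokines 3 rose. Fgl1, a fibrinogen-like hepatocyte protein, was at 114 and 127 FPKM in controls and 234 and 244 in knockouts (1.8-fold higher, adjusted p 3.7e-04, in the authors' deposited table), and the lipoprotein lipase inhibitor Angptl4 at 15.9 and 10.1 and 26.6 and 23.7 (adjusted p 0.015). Of 30 genes of cholesterol synthesis and uptake, the high-density lipoprotein receptor Scarb1 alone was called in the authors' deposited table, from 17 and 14.9 to 26.5 and 26.9 FPKM (adjusted p 0.046). None of 28 genes of methionine, one-carbon and taurine metabolism was called by that test or by voom, and 2 had an unadjusted p under 0.05 in the authors' deposited table. In the circadian clock list of 20, the repressor gene Nfil3 rose from 1.75 and 1.9 to 3.4 and 4.46 and Bhlhe41, which is no member, fell from 0.518 and 0.597 to 0.0429 and 0.153 FPKM (adjusted p 0.0032 and 1.8e-09 in the authors' deposited table).

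Several lists had no called gene. None of 37 ribosomal proteins, 38 genes of oxidative phosphorylation, 31 cell cycle genes, 30 coagulation factors or 36 genes of extracellular matrix passed the authors' adjusted p, and voom called none of them either. Without adjustment, 0, 0, 2, 4 and 4 of them had a p under 0.05 in the authors' deposited table. Of the 15 largest falls by ratio, 10 were microRNA or small nucleolar RNA genes with a few reads a library, such as Snord93 at 1.92 and 1.48 FPKM in controls and 0 in knockouts, and none of the 10 was called. Short genes of this kind make up 307 of the members, and 195 of the 200 members without enough reads for voom are among them.

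Almost as many called genes lay outside the function lists as inside, 157 against 164, with 102 of the 157 higher. The following were picked after their values were seen, from those that voom called too. Dnajc12, a co-chaperone for the aromatic amino acid hydroxylases, rose from 1.21 and 1.56 to 7.54 and 9.61 FPKM (voom 2.56 ± 0.24, adjusted p 0.0055). Atp11a, a phospholipid flippase, rose from 0.592 and 0.849 to 5.03 and 8.67 (voom adjusted p 0.0059), and Shisa5, a p53-inducible gene of the endoplasmic reticulum, from 3.62 and 2.32 to 11.3 and 16.7 (voom adjusted p 0.012). In each of the 3 both knockout libraries were well above either control.

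The same rule applied to XY livers gave 9317 genes, and the knockout effects of the sexes, which share no library, were compared over the XX members. The log2 ratios correlated with r = 0.53 (rho = 0.40) across genes, which are not independent replicates. In the authors' deposited table, which calls 2.18% of all genes in XY livers (1.39% higher and 0.793% lower), 176 of the 321 called members were called in the same direction there, 125 higher and 51 lower, 7 were called the opposite way and the others were not called. Over the whole table the 199 genes shared in direction were 53.2% of the 374 called in XX and 37.7% of the 528 called in XY. Shared genes included Saa1, Saa2, Orm2, Hp, Sult2a7, Igfbp1 and Igf1. Igf1, for example, was at 47.3 and 51.1 FPKM in control and 11.7 and 18 in knockout XY livers.

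The 7 with opposite calls were genes whose control levels in XX and XY livers were far apart. Among them A1bg, Cyp2a4, Slc22a26 and Serpina3h fell in XX and rose in XY. Cyp2a4 went from 171 and 149 to 98.7 and 100.3 FPKM in XX livers and from 1.04 and 0.0942 to 21.5 and 9.31 in XY, and A1bg from 246 and 139 to 123 and 69.8 and from 0.207 and 0 to 0.537 and 0.576. For both of these genes the knockout XY level stayed under the knockout XX level. Mup20 and Gm6614 rose in XX and fell in XY, Mup20 from 187 and 573 to 34.5 and 104 FPKM in XY livers and Gm6614 from 11.7 and 3.97 to 1.29 and 3.7.

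The difference of the knockout effect between the sexes was tested directly for each gene, as an interaction. Voom called 0 of 12980 genes (0%), the smallest adjusted p being 0.218, with 662 genes (5.10%) at an unadjusted p under 0.05, and limma on log2(FPKM + 1) called 2 (0.0111% of the 18004 genes fitted). The lowest p-values in voom belonged to Cyp2b13, Cyp2b9, Cyp2d9, Igfbp3, Nox4, Spp1, Ccng1 and Mup16. Cyp2b9 was at 6.52 and 1.29 FPKM in control and 121 and 91.9 in knockout XY livers, against the overlapping XX values above, a difference of -4.53 ± 0.62 (SE) in log2 change, XX minus XY (unadjusted p 5.3e-05). Cyp2d9 was at 157 and 247 and 143 and 129.7 in XY livers, a difference of 2.74 ± 0.40 (unadjusted p 7.8e-05). Nox4, a hydrogen peroxide-producing oxidase, was at 0.284 and 0.773 and 1.72 and 2.02 FPKM in XX and 6.27 and 8.02 and 4.33 and 5.23 in XY livers (unadjusted p 1.1e-04), and Spp1, or osteopontin, at 4.79 and 4.37 and 5.43 and 8.79 in XX and 2.13 and 5.94 and 37.1 and 28.2 in XY (unadjusted p 1.5e-04).

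**Figure D4:**
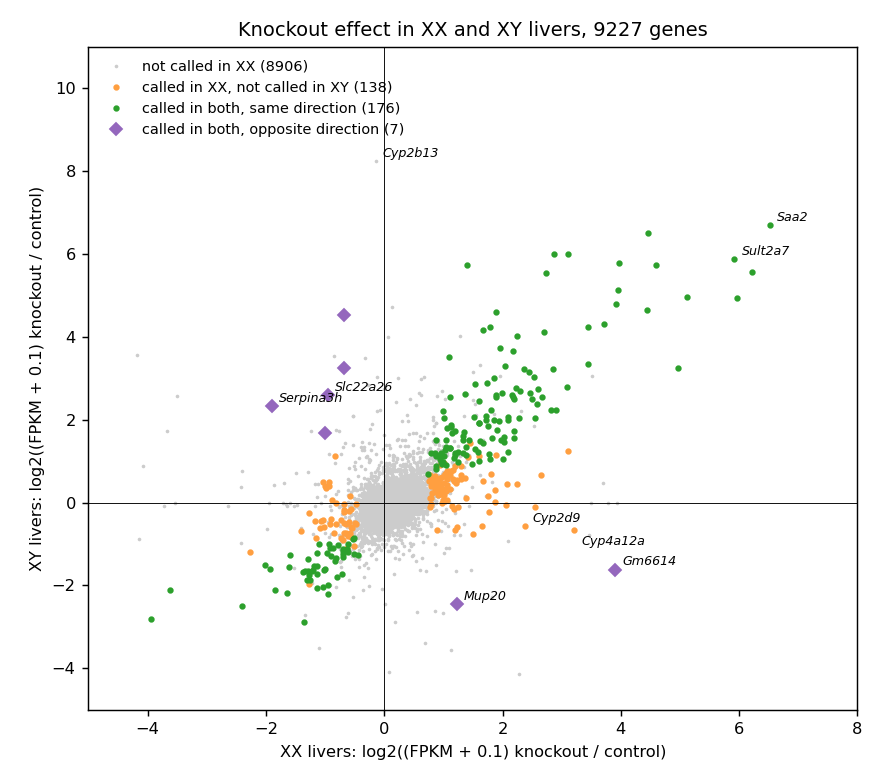
Log2((FPKM + 0.1) knockout/control) in XX livers against XY livers for the 9227 members, with called members coloured by whether they were also called in XY. Of the 321 called, 176 (green) were called the same way in both, 7 (diamonds) had opposite calls and the rest (orange) were not called in XY, and Cyp2b13 lies near 0 in XX and at 8.24 in XY.

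Motif letters were counted in RefSeq promoters of 300 bases, 250 before and 50 after the gene start, on both strands and with overlaps between motifs allowed. The STAT letters TTCNNNGAA were in 8.47% of the 27025 promoters, 1 per gene symbol, the C/EBP letters TTGCNNAA in 10.8% and the response element letters GAAANNGAAA in 3.49%. Of the 36 acute phase genes 29 were matched to a promoter, and 14 of these (48.3%) held the C/EBP letters, 7 (24.1%) the STAT letters and 2 (6.90%) the response element letters. Of 43 matched Cyp1 to Cyp4 genes, the numbers were 11 (25.6%), 2 (4.65%) and 2 (4.65%), and of 14 sulfotransferases 3, 1 and 1. For the members as a whole, and for the interferon and MHC lists, fewer than 80% were matched, so no share is given. A match describes letters in a window and says nothing of binding.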

How the data were processed

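Total RNA of liver pools was sequenced in 8 libraries, 2 in each of 4 groups, and each group's replicates are the libraries that the labels give it. Per the submitters' processing notes, reads were handled with TopHat2, featureCounts and edgeR on mm9, and no source used here gives their versions or the settings for strand and multiply matching reads. Per the file headers, the deposited values are the FPKM that the authors averaged over each group, and the edgeR ratio and p-value with its adjusted p-value that the authors computed for each comparison. No table of single libraries was used here.

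Because FPKM are whole reads divided by gene length and library total, the reads of both libraries of a group were recovered from each mean. For 18004 genes whole reads returned the deposited mean, with a largest difference of 2.2e-11 FPKM, and 6193 genes are listed at 0. An annotated exon length served for 3256 of the genes and a length found by search for 14748. The library totals were inferred from the same means. On simulated means, all reads came out right for 278 of 280 genes with 50 or more reads and for 104 of 112 with fewer. The simulation used the same library totals, so it does not check them. A recovered library is known as the deeper or the shallower of its group, not by its pool number. XX library totals ran from 15041481 to 34651386, which limits the precision of genes with few reads.

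Calls are those of the authors (adjusted p under 0.05). Refits used limma 3.58.1 in R 4.3.3: voom on recovered reads of 8 libraries, with at least 10 reads in 2 or more (12980 genes, 4 residual degrees of freedom, libraries scaled by the median of ratios), and limma on log2(FPKM + 1), with p-values adjusted by Benjamini-Hochberg over all genes. In simulated reads for 12793 genes, voom called 49 of 100 genes changed 2-fold and 82 of 100 changed 4-fold, with 11 unchanged genes among 142 calls. Python 3.11.15, numpy 2.4.6 and pandas 2.3.3 did the rest. Promoter windows are RefSeq's (GRCm38.p6), matched by symbol, and coordinates on mm9 come from the deposited table.

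Named genes were those with the 15 largest non-overlapping rises and falls, the 8 largest FPKM changes each way, up to 6 called members per list, the 8 lowest interaction p-values and Stat5a and Stat5b, with textbook members added. The members and lists were chosen with earlier results of these data known. Alternatives were other pseudocounts, FPKM limits, scalings and refits, and each XX library left out. Results of some genes are not reported here.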

Additional observations from a re-analysis of the deposited data

Results flagged for a closer look

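Cyp2b13, a cytochrome P450 typical of female liver, had a knockout effect that differed between XX and XY livers by 1 of the refits. It was at 61.8 and 46.9 FPKM in control and 45.4 and 53.2 in knockout XX livers, with overlapping libraries, and at 0.219 and 0.0861 in control and 99.6 and 53.4 in knockout XY livers. The adjusted p of the interaction was 0.0482 by limma on log2(FPKM + 1). By limma voom the difference in log2 change was -8.77 ± 1.04 (SE), XX minus XY, with an adjusted p of 0.218. Close copies of this gene may share its reads.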

How the results depend on the processing

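With 2 libraries a group, calls depended on the test. The authors' deposited table calls 321 members, limma voom 43 and limma on log2(FPKM + 1) 3. Voom called 67 on the 4 XX libraries alone and 69 when scaled by library totals. Leaving out 1 XX library, with the lone library assumed to vary like the others, voom called 8 to 54: 8 when the deeper control was dropped, 13 for the shallower control, 54 for the deeper knockout and 19 for the shallower. At 5 FPKM or more the authors' calls among members numbered 182. Members past 2-fold numbered 318, 163 with a pseudocount of 1, and 291 to 482 with 1 library left out (482 without the deeper control). The interaction of knockout and sex was called in 0 genes by voom and in 2 by limma on log2(FPKM + 1). It ranged over 0 to 1 genes with an XX library left out (1 without the deeper knockout), a check chosen after seeing the data. No named gene reversed, and of 142 named genes with voom values 41 kept their side of the threshold in voom and 101 lost the call. The cause of these differences was not tested. No paired analysis was possible because the recovered libraries carry no pool number. Low reads limit short genes.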
